A study of Mus musculus with 48 samples.

Results

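Mitochondrial beta-oxidation shortens fatty acids in the mitochondrial matrix, and 10 of its enzymes were followed here in mouse liver across 3 genotypes and 2 diets. Probes were taken by gene name, but the members were chosen with earlier results of these data known. Shares of all genes given beside their counts are thus a description and no test. The members were Acadvl, Acadl, Acadm, Acads, Hadha, Hadhb, Hadh, Eci1, Decr1 and Etfdh. Of the 37074 gene names printed on the array, these 10 were found on 13 of 56605 probes. All 13 probes passed the filter on dim signal, which kept 33326 probes of 22032 genes, and all 13 were well above background on each of the 48 arrays with 0 saturated spots.

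RNA came from the livers of male C57BL/6J mice, labelled as 20 weeks old and as fed for 12 weeks, with 8 mice and 8 arrays in each of 6 groups. WT mice are labelled wild type for Pparα, the gene of the fatty acid sensing nuclear receptor PPARα. Pparα-/- mice carry a germline deletion and so lack the receptor in every cell. In Pparα hep-/- mice a Cre recombinase driven by the albumin promoter removes an exon from a floxed gene, so the deletion is limited to hepatocytes and the other liver cells keep the receptor. Each genotype received a low-fat control diet (CTRL) or a high-fat diet labelled as 60% fat (HFD). All groups were kept at thermoneutrality, and the study's methods give a shorter feeding period than the labels do. By those methods the WT mice came from a supplier, while both deletion lines were bred in the authors' own facility. Genotype and origin of the mice therefore cannot be told apart in the comparisons with WT. Values are quantile normalized log2 signals, so a difference of 1 is a doubling. The p-values set a difference against the spread between mice within groups, pooled over all 6 groups with array weights. The spread was not the same in every group.

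Beta-oxidation removes acetyl-CoA from an acyl-CoA chain in a repeating cycle of dehydrogenation, hydration, a further dehydrogenation and thiolytic cleavage. Different enzymes serve different chain lengths, and auxiliary enzymes deal with double bonds that the cycle cannot pass. Electrons from the first dehydrogenation travel through the electron transfer flavoprotein (ETF) to the respiratory chain. In liver the pathway supplies energy and ketone bodies during fasting, and PPARα is the best known activator of its genes, binding DNA as a partner of the retinoid X receptor at direct repeats of AGGTCA.

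Across the 48 arrays the median spot intensity was 56 to 91 against a local background of 20 to 36, and 28234 to 38217 spots were well above background. The arrays came from 2 wash batches, which held 4 mice each of every group except for 3 and 5, and 5 and 3, in the Pparα hep-/- CTRL and HFD groups. Ppara itself has 2 probes, and their place relative to the deleted exon was not established, so they do not check the deletion. The brighter was lower in Pparα-/- than in WT mice by 0.65 on CTRL and 1.08 on HFD, and in Pparα hep-/- mice by 0.42 and 0.85. The other was lower in Pparα-/- mice by 1.11 and 1.29, whereas in Pparα hep-/- mice its difference was -0.10 on CTRL (adjusted p = 0.454) and -0.68 on HFD. WT HFD replicates 1 and 2 stood apart: the summed signal of 4 lymphocyte and neutrophil markers was 3922 and 8932 there, at most 1578 in the other 6 mice of the group and at most 2514 on any other array. The main results of the 10 genes that rest on the WT HFD group are therefore also given without them. Joint counts over several comparisons, marker counts, related lists, Ppara and further probes are given only with them. Their array weights were 0.537 and 0.343, where the 48 arrays ran from 0.189 to 2.529. Fitted values that include these mice thus already count them less than most arrays. WT HFD replicate 6, WT CTRL replicate 6 and Pparα hep-/- CTRL replicate 1 had high stellate cell sums, at 34905, 25218 and 30053. Leaving these out 1 at a time changed 1, 0 and 0 of the 120 calls of the 10 genes, the one being Decr1 in Pparα hep-/- against WT mice on HFD. In a bulk sample fewer cells of a type and less RNA per cell cannot be told apart.

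**Figure D1:**
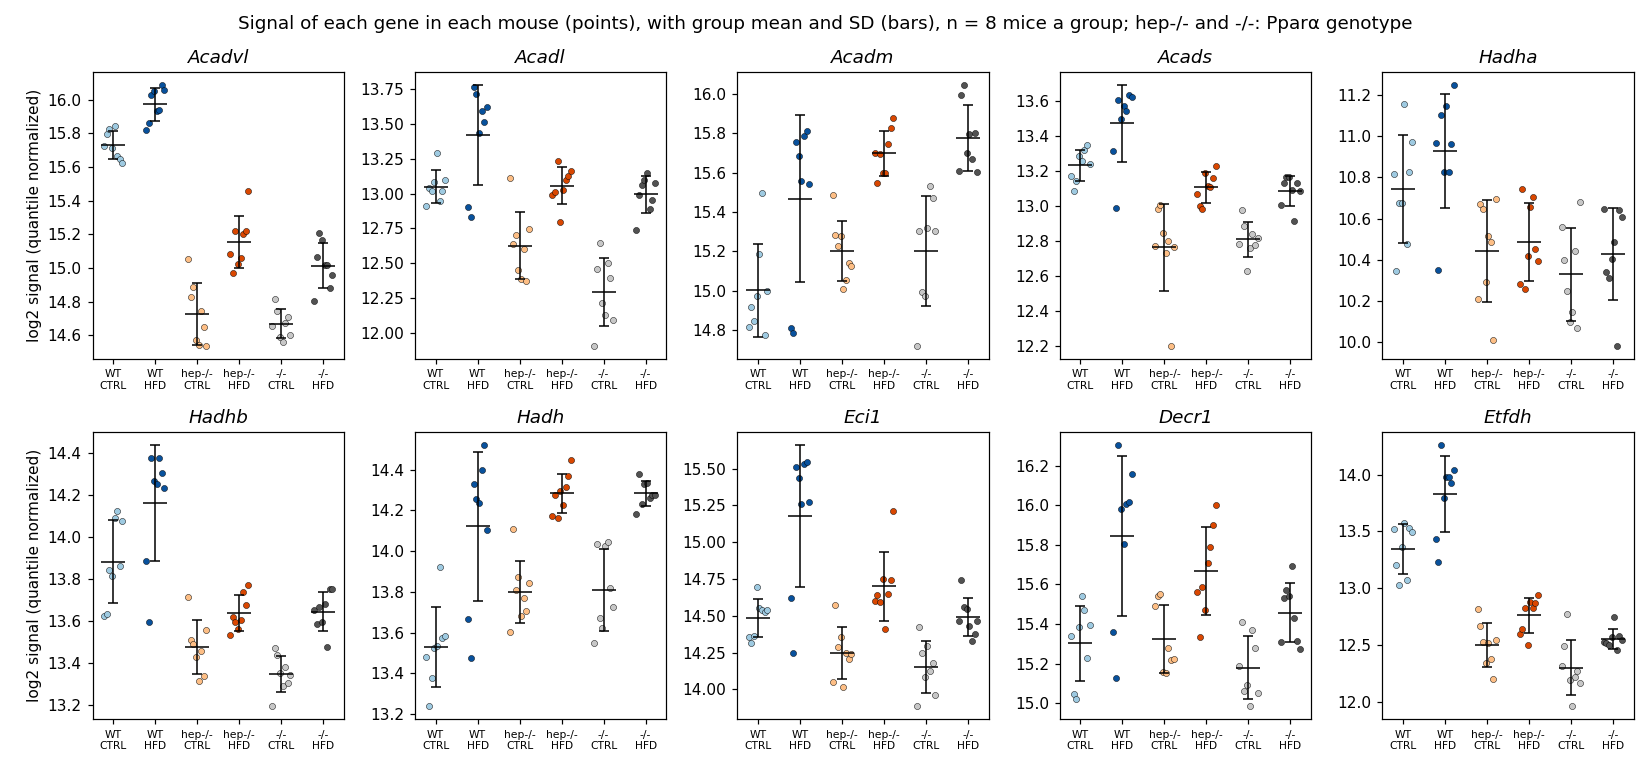
Quantile normalized log2 signal of the 10 genes (y axis, 1 panel per gene, each with its own range) in the 6 groups of 8 mice (x axis; hep-/- and -/- stand for the Pparα genotypes). Each point is a mouse, long bars are group means and whiskers the SD, and WT HFD replicates 1 and 2 are the lowest points of their group for every gene but Hadha, where only replicate 2 is low, at 10.35 with the next mouse at 10.82.

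The HFD raised all 10 enzymes in WT mice, 9 in Pparα hep-/- mice and 8 in Pparα-/- mice. Over all genes tested, 9.32%, 10.7% and 13.8% were higher on HFD in the same comparisons. WT mice had a median response of 0.51 over the 10 genes, Pparα hep-/- mice had 0.40 and Pparα-/- mice had 0.33, where the medians over all genes were -0.001, -0.015 and -0.011. Hadha missed the threshold in both deletions and Decr1 in Pparα-/- mice, although all 10 values were above 0 in every genotype. Without array weights the counts were 9, 6 and 6, where 6.35%, 1.79% and 6.5% of all genes were higher: Hadha was lost in WT mice, Hadhb, Decr1 and Etfdh in Pparα hep-/- mice (adjusted p of 0.078 to 0.287) and Eci1 and Etfdh in Pparα-/- mice (0.0646 and 0.0954). Scaling to the 75th percentile ended the calls of Hadhb and Eci1 in Pparα hep-/- and of Eci1 in Pparα-/- mice. 8 of the 10 were higher on HFD in all 3 genotypes, which held for 1.34% of all genes. The HFD and CTRL mice of a genotype overlapped for every gene in WT mice. So 0 of 10 were separated, as were 0.268% of all genes upwards. Without WT HFD replicates 1 and 2, every gene but Hadha was separated, 9 of 10 beside 2.13% of all genes. These were the lowest WT HFD mice for all 9, so leaving them out could only favour separation. The share of all genes is no like measure, since other genes did not lose their own lowest mice. The groups did not overlap for Acadm and Hadh in Pparα hep-/- mice (0.25% of all genes), nor for Acadl, Acadm, Hadh and Hadhb in Pparα-/- mice (0.84%).

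Markers of other cells moved beside these diet responses. Of 8 macrophage markers 0 were higher on HFD in WT mice, 2 in Pparα hep-/- and 6 in Pparα-/- mice. Of 7 stellate cell markers 0, 4 and 6 were higher, and of 5 endothelial markers 0, 1 and 2. Of 4 lymphocyte and neutrophil markers 1 was higher and 1 lower in Pparα-/- mice, and 0 were called in the other genotypes. Of 8 hepatocyte markers the HFD lowered 1 in WT mice, the same number in Pparα hep-/- mice, and 3 in Pparα-/- mice, where 1 was higher. The summed macrophage signal ran from 18394 to 41332 in WT CTRL and from 14705 to 75925 in WT HFD mice, from 32451 to 49287 and from 35372 to 70934 in Pparα hep-/- mice, and from 23594 to 48883 and from 39839 to 80587 in Pparα-/- mice. The part of these cells in the enzyme values was not tested.

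**Figure D2:**
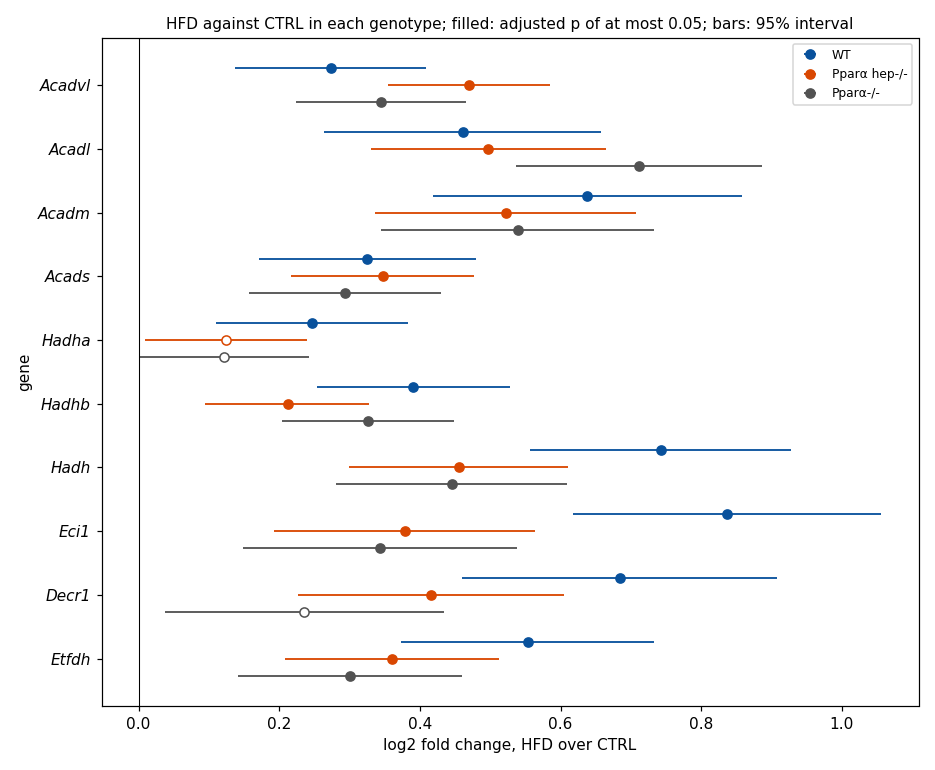
Log2 fold change of HFD over CTRL (x axis) for each of the 10 genes (y axis) in WT, Pparα hep-/- and Pparα-/- mice, with 95% intervals as bars and filled points for an adjusted p of at most 0.05. All values lie above 0, and the 3 open points are Hadha in both deletions and Decr1 in Pparα-/- mice.

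Most of the 10 genes were lower in the deletions than in WT mice on either diet. On CTRL, 7 were lower in Pparα-/- than in WT mice (18.4% of all genes were lower) and 6 were lower in Pparα hep-/- mice (12.9%). Hadh was higher in both, and Acadm was higher in Pparα-/- mice (in Pparα-/- mice 16.9% and in Pparα hep-/- mice 12.3% of all genes were higher). On HFD, 8 were lower in Pparα-/- mice (23.7%) and 8 in Pparα hep-/- mice (14%), and the same genes, Acadm and Hadh, were the exceptions in both. The median differences of the 10 genes were -0.43 and -0.37 on CTRL, and -0.55 and -0.46 on HFD, for Pparα-/- and Pparα hep-/- mice, against all-gene medians from -0.021 to -0.004. 6 genes, Acadl, Acads, Acadvl, Etfdh, Hadha and Hadhb, were lower in all 4 comparisons with WT, as were 2.62% of all genes. All of these but Hadha also rose on HFD in every genotype, a combination that held for 0.191% of all genes. Comparisons on 1 diet share their WT mice, and the HFD comparisons share mice with the diet responses.

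Hepatocyte markers moved in the same comparisons. 4 of the 8 were lower in Pparα-/- than in WT mice on each diet, and 3 on CTRL and 2 on HFD were lower in Pparα hep-/- mice. Their summed signal was 1382406 to 1486555 in WT CTRL mice and 1330377 to 1408349 in Pparα-/- CTRL mice. On HFD 7 of 8 macrophage and 7 of 7 stellate cell markers were higher in Pparα-/- than in WT mice, and 5 and 6 were higher in Pparα hep-/- mice. On CTRL the macrophage counts were 3 and 2, and 1 stellate cell marker was higher in each deletion. Of the 5 endothelial markers 2 were higher and 1 lower in Pparα-/- mice on CTRL, 3 were higher and 1 lower on HFD, and 3 were higher in Pparα hep-/- mice on each diet. Of 4 lymphocyte and neutrophil markers 2 were higher in Pparα-/- mice on each diet, and in Pparα hep-/- mice 1 was higher on CTRL and 1 lower on HFD. Their part in the enzyme differences was not tested.

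**Figure D3:**
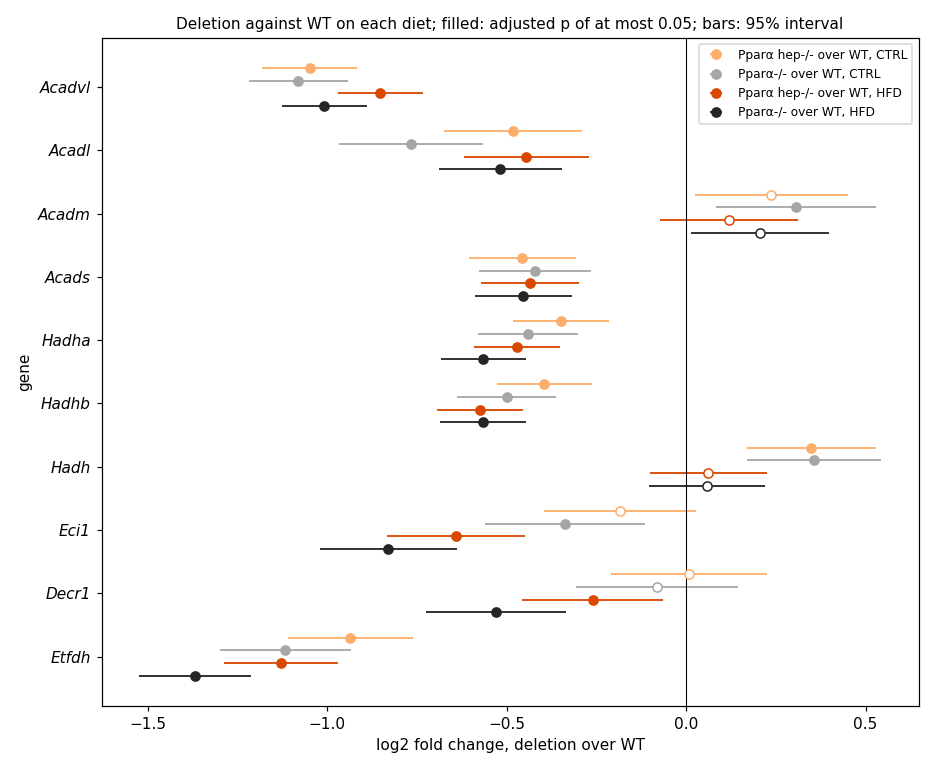
Log2 fold change of each Pparα genotype over WT (x axis) for the 10 genes (y axis) on CTRL and on HFD, with 95% intervals as bars and filled points for an adjusted p of at most 0.05. Acadvl and Etfdh lie farthest below 0, between -0.85 and -1.37, and Acadm and Hadh lie above 0.

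The acyl-CoA dehydrogenases open the cycle and differ in the chain length they accept. Acadvl encodes the very-long-chain enzyme of the inner membrane. Its log2 signal was 15.62 to 15.84 (median 15.72) in WT CTRL and 15.82 to 16.09 (median 15.98) in WT HFD mice. In Pparα hep-/- mice it was 14.54 to 15.06 (median 14.70) on CTRL and 14.97 to 15.46 (median 15.14) on HFD, and in Pparα-/- mice 14.56 to 14.82 (median 14.66) and 14.80 to 15.21 (median 15.02). Every WT mouse, on either diet, lay above every mouse of both deletions. The deletion difference on CTRL was -1.08 (95% interval -1.22 to -0.94, adjusted p = 2.25e-17) in Pparα-/- and -1.05 (95% interval -1.18 to -0.92, adjusted p = 2.23e-16) in Pparα hep-/- mice, a loss of 52.7% and 51.7% of the signal. On HFD it was -1.01 (95% interval -1.13 to -0.89) and -0.85 (95% interval -0.97 to -0.73). The HFD nevertheless raised Acadvl in both deletions, by 0.47 (95% interval 0.35 to 0.58, adjusted p = 2.04e-07) in Pparα hep-/- and 0.34 (95% interval 0.22 to 0.47, adjusted p = 5.17e-05) in Pparα-/- mice, beside 0.27 (95% interval 0.14 to 0.41, adjusted p = 0.00304) in WT mice. The rise did not bring the deletions to the WT level. Pparα-/- mice on HFD stayed below WT mice on CTRL by 0.73, with no overlap.

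Of the 9 members with a RefSeq promoter window (GRCm38.p6, 250 bases before to 50 after the start site, with none held for Decr1), Acadvl and Acadm are the ones that hold the 6-letter receptor motif AGGTCA on either strand, as do 16.3% of 32851 windows. The direct repeat AGGTCANAGGTCA was in 0 of the 9 windows and in 0.0396% of all windows. Its looser form AGGNCANAGGNCA, which takes any base in the 4th place of each repeat, was in 0 of 9 and in 0.381%. These letters are a description of the window and not a binding site. The bases before the start sites of both genes are shown because they carry the motif, in capitals. In addition, Acadvl was lower in both deletions on both diets, and Acadm on neither. Acadvl is chr11:70015429-70015678 on the minus strand, with the motif 87 bases before the start, and Acadm is chr3:153944644-153944893 on the minus strand, with the motif on the opposite strand 249 bases before the start.
Acadvl: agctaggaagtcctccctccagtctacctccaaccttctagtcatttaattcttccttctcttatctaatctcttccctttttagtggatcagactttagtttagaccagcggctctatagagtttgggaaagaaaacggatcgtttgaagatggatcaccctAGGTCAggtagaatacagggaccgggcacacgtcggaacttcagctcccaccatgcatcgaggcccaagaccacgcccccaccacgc
Acadm: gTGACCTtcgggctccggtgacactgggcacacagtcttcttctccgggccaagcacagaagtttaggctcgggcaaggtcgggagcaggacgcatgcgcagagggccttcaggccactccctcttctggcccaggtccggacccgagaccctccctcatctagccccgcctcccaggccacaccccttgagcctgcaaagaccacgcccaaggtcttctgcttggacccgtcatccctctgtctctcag

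Acadl encodes the long-chain dehydrogenase, which in mice acts on long and branched chains. It was 12.91 to 13.29 (median 13.03) in WT CTRL and 12.83 to 13.77 (median 13.55) in WT HFD mice. In Pparα hep-/- mice it was 12.37 to 13.11 (median 12.62) and 12.80 to 13.24 (median 13.06), and in Pparα-/- mice 11.91 to 12.64 (median 12.30) and 12.74 to 13.15 (median 13.03). It was lower in both deletions on CTRL, and its diet response in Pparα-/- mice, 0.71 (95% interval 0.54 to 0.89, adjusted p = 1.6e-07), separated all HFD from all CTRL mice. In WT mice the response was 0.46 (95% interval 0.26 to 0.66, adjusted p = 0.00068) and in Pparα hep-/- mice 0.50 (95% interval 0.33 to 0.66, adjusted p = 3.74e-05). The Acadl difference between Pparα-/- mice on HFD and WT mice on CTRL was -0.057 (95% interval -0.24 to 0.13), short of the threshold (adjusted p = 0.637). On CTRL the Acadl difference from WT was -0.77 (95% interval -0.97 to -0.57, adjusted p = 2.76e-08) for Pparα-/- and -0.48 (95% interval -0.67 to -0.29, adjusted p = 0.000173) for Pparα hep-/- mice. On HFD the differences were -0.52 and -0.45, both past the threshold.

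Acadm encodes the medium-chain dehydrogenase. Its signal was 14.78 to 15.50 (median 14.95) in WT CTRL and 14.79 to 15.81 (median 15.62) in WT HFD mice, 15.01 to 15.49 (median 15.18) and 15.55 to 15.88 (median 15.70) in Pparα hep-/- mice, and 14.72 to 15.54 (median 15.30) and 15.60 to 16.05 (median 15.75) in Pparα-/- mice. Every HFD mouse of both deletions exceeded every CTRL mouse of its own genotype, and every WT CTRL mouse as well. The response to HFD was 0.64 (95% interval 0.42 to 0.86, adjusted p = 4.73e-05) in WT, 0.52 (95% interval 0.34 to 0.71, adjusted p = 8.1e-05) in Pparα hep-/- and 0.54 (95% interval 0.34 to 0.73, adjusted p = 8.26e-05) in Pparα-/- mice. Acadm was not called lower in either deletion on either diet. On CTRL it was higher in Pparα-/- mice by 0.31 (95% interval 0.083 to 0.53, adjusted p = 0.0276), with a value of 0.24 (95% interval 0.024 to 0.45) in Pparα hep-/- mice that missed the threshold (adjusted p = 0.0961). The Pparα-/- call was lost when WT CTRL replicate 1 or 3 or Pparα-/- CTRL replicate 6 or 7 was left out, with values from 0.22 to 0.38 and an adjusted p of up to 0.14, and also without array weights (0.20) or without the filter (0.28). On HFD the differences were 0.21 (95% interval 0.015 to 0.40) and 0.12 (95% interval -0.073 to 0.31), short of the threshold, although that of Pparα-/- mice passed without WT HFD replicate 3 or 7, where the adjusted p fell as low as 0.0348, and without array weights, at 0.31 (adjusted p = 0.0466). Without WT HFD replicates 1 and 2 the values were 0.11 and 0.026, both short of the threshold.

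Acads encodes the short-chain dehydrogenase, which handles the last turns of the cycle. It was 13.09 to 13.35 (median 13.25) in WT CTRL, 12.20 to 13.01 (median 12.79) in Pparα hep-/- CTRL and 12.63 to 12.98 (median 12.80) in Pparα-/- CTRL mice. On HFD it was 12.99 to 13.63 (median 13.56), 12.98 to 13.23 (median 13.11) and 12.92 to 13.17 (median 13.11) in the same order. On CTRL all mice of both deletions lay below all WT mice, whereas on HFD the groups overlapped through the lowest WT mouse. The 3 diet responses were close in size, at 0.33, 0.35 and 0.29 in WT, Pparα hep-/- and Pparα-/- mice. So were the 4 differences from WT, which ran from -0.46 for Pparα hep-/- mice on CTRL to -0.42 for Pparα-/- mice on CTRL, with adjusted p of at most 2.61e-05.

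Hadha and Hadhb encode the alpha and beta subunits of the trifunctional protein, which carries out hydration, dehydrogenation and thiolysis of long chains. Their genes lie head to head, with start sites 273 bases apart on opposite strands, so that both promoter windows share the 228 bases of chr5:30155003-30155230 (GRCm38.p6, RefSeq, plus strand, the strand of Hadhb). These bases are shown because they lie between both start sites, and none of the motifs searched is in either window.
Hadha and Hadhb: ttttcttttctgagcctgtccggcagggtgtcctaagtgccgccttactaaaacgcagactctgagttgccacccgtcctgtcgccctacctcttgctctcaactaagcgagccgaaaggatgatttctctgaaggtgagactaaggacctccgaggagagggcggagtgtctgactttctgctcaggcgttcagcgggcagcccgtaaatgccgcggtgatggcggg

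Hadha was 10.35 to 11.16 (median 10.75) in WT CTRL and 10.35 to 11.25 (median 10.96) in WT HFD mice, 10.01 to 10.70 (median 10.50) and 10.26 to 10.74 (median 10.43) in Pparα hep-/- mice, and 10.07 to 10.68 (median 10.32) and 9.98 to 10.65 (median 10.44) in Pparα-/- mice. All groups overlapped. Its signal differed between wash batches by 0.36 (adjusted p = 4.23e-11), the largest such difference among the 10 genes. The call on HFD in WT mice rested on how the batch was handled. With the batch as a term the HFD raised it in WT mice by 0.25 (95% interval 0.11 to 0.38, adjusted p = 0.0075), and the values within the batches were 0.31 and 0.25. Without that term the adjusted p was 0.135, and without array weights it was 0.0657. In Pparα hep-/- and Pparα-/- mice the responses were 0.12 (95% interval 0.009 to 0.24) and 0.12 (95% interval 0 to 0.24), short of the threshold at adjusted p of 0.119 and 0.136. A miss in the deletions and a call in WT mice do not show that the responses differ. Tested directly, the differences were 0.12 (95% interval -0.057 to 0.30) and 0.12 (95% interval -0.057 to 0.31), short of the threshold. Hadha was lower than in WT mice on CTRL by 0.44 in Pparα-/- and 0.35 in Pparα hep-/- mice, and on HFD by 0.57 and 0.47. The Pparα hep-/- call on CTRL was lost without the wash batch term (adjusted p = 0.109).

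Hadhb was 13.62 to 14.12 (median 13.85) in WT CTRL and 13.60 to 14.38 (median 14.26) in WT HFD mice. It was 13.31 to 13.72 (median 13.47) and 13.53 to 13.77 (median 13.61) in Pparα hep-/- mice, and 13.20 to 13.47 (median 13.35) and 13.48 to 13.75 (median 13.66) in Pparα-/- mice. All Pparα-/- CTRL mice lay below all WT CTRL mice and below all Pparα-/- HFD mice. The diet responses were 0.39 (95% interval 0.25 to 0.53, adjusted p = 6.51e-05) in WT, 0.21 (95% interval 0.10 to 0.33, adjusted p = 0.00764) in Pparα hep-/- and 0.33 (95% interval 0.20 to 0.45, adjusted p = 0.000131) in Pparα-/- mice. The deletion differences were -0.50 and -0.40 on CTRL and -0.56 and -0.57 on HFD, for Pparα-/- and Pparα hep-/- mice, all past the threshold. On HFD the differences of both subunits from WT ran from -0.57 to -0.47.

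Hadh encodes the short- and medium-chain hydroxyacyl-CoA dehydrogenase of the matrix. It was 13.24 to 13.92 (median 13.53) in WT CTRL and 13.47 to 14.52 (median 14.25) in WT HFD mice, 13.61 to 14.11 (median 13.79) and 14.16 to 14.45 (median 14.29) in Pparα hep-/- mice, and 13.55 to 14.05 (median 13.77) and 14.18 to 14.38 (median 14.28) in Pparα-/- mice. In both deletions the HFD mice lay above all CTRL mice, while on HFD the 3 genotypes overlapped. The HFD raised it by 0.74 (95% interval 0.56 to 0.93, adjusted p = 3.81e-07) in WT, 0.46 (95% interval 0.30 to 0.61, adjusted p = 5.17e-05) in Pparα hep-/- and 0.45 (95% interval 0.28 to 0.61, adjusted p = 0.000105) in Pparα-/- mice. On CTRL it was higher in Pparα-/- mice by 0.36 (95% interval 0.17 to 0.54, adjusted p = 0.00225) and in Pparα hep-/- mice by 0.35 (95% interval 0.17 to 0.53, adjusted p = 0.00284), the latter lost without array weights (adjusted p = 0.0637). On HFD the differences from WT were 0.059 (95% interval -0.10 to 0.22) and 0.062 (95% interval -0.10 to 0.23), neither past the threshold.

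Eci1 and Decr1 are the auxiliary enzymes for unsaturated chains: Eci1 shifts a double bond of an enoyl-CoA to the place the cycle needs, and Decr1 reduces dienoyl-CoA. Eci1 was 14.31 to 14.69 (median 14.53) in WT CTRL and 14.25 to 15.54 (median 15.36) in WT HFD mice. It was 14.01 to 14.57 (median 14.24) and 14.41 to 15.21 (median 14.64) in Pparα hep-/- mice, and 13.89 to 14.43 (median 14.15) and 14.33 to 14.74 (median 14.46) in Pparα-/- mice. Of the WT HFD mice 6 lay above all mice of the other groups, whereas the lowest WT HFD mouse lay below the lowest WT CTRL mouse. Its response in WT mice, 0.84 (95% interval 0.62 to 1.06, adjusted p = 7.05e-07) or 78.6% more signal, was the highest of the 10. In Pparα hep-/- and Pparα-/- mice it was 0.38 (95% interval 0.19 to 0.56, adjusted p = 0.00297) and 0.34 (95% interval 0.15 to 0.54, adjusted p = 0.00732). The deletions stood closer to WT mice on CTRL than on HFD. On CTRL Eci1 differed from WT by -0.34 (95% interval -0.56 to -0.12, adjusted p = 0.0148) in Pparα-/- mice and by -0.18 (95% interval -0.40 to 0.029, adjusted p = 0.214) in Pparα hep-/- mice, the latter short of the threshold. On HFD the gaps widened to -0.83 and -0.64. Between Pparα-/- mice on HFD and WT mice on CTRL the Eci1 difference was 0.007 (95% interval -0.20 to 0.21), short of the threshold (adjusted p = 0.964).

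Decr1 was 15.02 to 15.54 (median 15.36) in WT CTRL and 15.13 to 16.30 (median 15.99) in WT HFD mice, 15.15 to 15.55 (median 15.25) and 15.33 to 15.999 (median 15.65) in Pparα hep-/- mice, and 14.99 to 15.41 (median 15.14) and 15.28 to 15.69 (median 15.48) in Pparα-/- mice. On CTRL the 3 genotypes lay in the same range, with differences from WT of -0.081 (95% interval -0.31 to 0.15) and 0.008 (95% interval -0.21 to 0.23) that missed the threshold. The HFD raised it by 0.68 (95% interval 0.46 to 0.91, adjusted p = 2.3e-05) in WT and 0.41 (95% interval 0.23 to 0.60, adjusted p = 0.00148) in Pparα hep-/- mice. In Pparα-/- mice the response was 0.23 (95% interval 0.037 to 0.43, adjusted p = 0.0738), which passed the threshold without Pparα-/- HFD replicate 7 or 8 (adjusted p down to 0.0361). On HFD the Decr1 difference from WT was -0.53 (95% interval -0.72 to -0.33, adjusted p = 1.52e-05) for Pparα-/- and -0.26 (95% interval -0.46 to -0.063, adjusted p = 0.0427) for Pparα hep-/- mice. The last call was lost when any of 10 mice was left out (WT HFD replicates 3, 4, 6, 7 and 8 and Pparα hep-/- HFD replicates 1 to 5), with values from -0.32 to -0.19 and an adjusted p of up to 0.185, and without array weights (-0.17), the wash batch term or the filter (-0.24 for both).

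Etfdh encodes the ETF-ubiquinone oxidoreductase, through which the electrons of all acyl-CoA dehydrogenases enter the respiratory chain. It was 13.02 to 13.57 (median 13.43) in WT CTRL and 13.23 to 14.26 (median 13.95) in WT HFD mice. It was 12.20 to 12.81 (median 12.52) and 12.50 to 12.94 (median 12.82) in Pparα hep-/- mice, and 11.96 to 12.77 (median 12.24) and 12.46 to 12.75 (median 12.54) in Pparα-/- mice. As for Acadvl, all WT mice on either diet lay above all mice of both deletions. Its deletion differences were the farthest below 0 among the 10 genes, except that Acadvl lay lower in Pparα hep-/- mice on CTRL. They were -1.12 (95% interval -1.30 to -0.93, adjusted p = 7.45e-14) in Pparα-/- and -0.94 (95% interval -1.11 to -0.76) in Pparα hep-/- mice on CTRL, and -1.37 (95% interval -1.52 to -1.21, adjusted p = 2.8e-19) and -1.13 (95% interval -1.29 to -0.97) on HFD. The diet moved Etfdh up in every genotype. The HFD raised it by 0.55 (95% interval 0.37 to 0.73, adjusted p = 2.09e-05) in WT, 0.36 (95% interval 0.21 to 0.51, adjusted p = 0.000672) in Pparα hep-/- and 0.30 (95% interval 0.14 to 0.46, adjusted p = 0.00436) in Pparα-/- mice. Pparα-/- mice on HFD stayed below WT mice on CTRL by 0.82, with no overlap. The signal differed between wash batches by 0.14 (adjusted p = 0.0195), and the CTRL difference of Pparα-/- mice was -0.94 and -1.25 within them.

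Groups that did not overlap at all were found for fewer genes. On CTRL, Acadl, Acads, Acadvl, Hadhb and Etfdh lay below WT in Pparα-/- mice with no overlap (3.29% of all genes did), and Acads, Acadvl and Etfdh did so in Pparα hep-/- mice (0.781%). On HFD, Acadvl and Etfdh were separated downwards in both deletions (3.82% of all genes in Pparα-/- and 0.962% in Pparα hep-/- mice). Much of the overlap on HFD came from WT HFD replicates 1 and 2. Without them 8 genes, all but Acadm and Hadh, were separated downwards in Pparα-/- mice (5.8% of all genes), and 7, the same without Decr1, in Pparα hep-/- mice (1.82%). These counts gain from leaving out the lowest WT HFD mice of nearly all the genes, and the shares of all genes do not in the same way.

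Few of the 10 genes differed between loss of PPARα in every cell and loss in hepatocytes alone. On CTRL only Acadl was called, with a difference of Pparα-/- from Pparα hep-/- mice of -0.29 (95% interval -0.47 to -0.11, adjusted p = 0.0139), and 1 of 10 lies near the 13.4% of all genes that were lower. That call was lost without Pparα-/- CTRL replicate 1 (adjusted p = 0.0548), and Etfdh, at -0.18 (95% interval -0.34 to -0.017), passed without Pparα-/- CTRL replicate 3. On HFD 3 genes were lower in Pparα-/- mice, a share to set against 15% of all genes: Acadvl at -0.16 (95% interval -0.27 to -0.045, adjusted p = 0.0271), Decr1 at -0.27 (95% interval -0.45 to -0.086, adjusted p = 0.0201) and Etfdh at -0.24 (95% interval -0.39 to -0.093, adjusted p = 0.0095). Eci1 was called too, at -0.19 (adjusted p = 0.0415), when WT HFD replicates 1 and 2 were left out of the fit, where again 15% of all genes were lower. The Acadvl call was lost without Pparα hep-/- HFD replicate 6, 7 or 8 or Pparα-/- HFD replicate 1, 7 or 8 (-0.19 to -0.12, adjusted p up to 0.129). The Decr1 call was lost without Pparα hep-/- HFD replicate 6, 7 or 8 or Pparα-/- HFD replicate 7 or 8 (-0.31 to -0.21, adjusted p up to 0.0956). All 3 were lost when array weights were not used. For Hadh the intervals bound the difference to -0.16 to 0.17 on CTRL and -0.15 to 0.15 on HFD, and for Acads to -0.10 to 0.17 and -0.14 to 0.11. On HFD 3 of 8 macrophage markers were higher and 2 of 8 hepatocyte markers lower in Pparα-/- than in Pparα hep-/- mice, 2 of 5 endothelial markers were higher and 1 lower, 2 of 4 lymphocyte and neutrophil markers and 1 of 7 stellate cell markers were higher. On CTRL 2 lymphocyte and neutrophil markers and 1 endothelial marker were higher, 1 each of the hepatocyte, stellate cell and endothelial markers were lower, and 0 macrophage markers were called. Their part was not tested.

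Whether the diet response itself depended on genotype was tested as a difference of responses. The response of Eci1 in WT mice exceeded that in Pparα hep-/- mice by 0.46 (95% interval 0.17 to 0.75, adjusted p = 0.032), and 1 of 10 lies near the 6.3% of all genes that did so. Against Pparα-/- mice Eci1 responded more by 0.49 (95% interval 0.20 to 0.79, adjusted p = 0.0181) and Decr1 by 0.45 (95% interval 0.15 to 0.75, adjusted p = 0.0352), 2 of 10 beside 7.77% of all genes. Between the deletions 0 of the 10 responses differed by limma, and 0 had an unadjusted p under 0.05, where 1.38% and 2.55% of all genes were called higher and lower. Among the differences of WT from a deletion, the lowest were -0.25 (95% interval -0.51 to 0.014) for Acadl against Pparα-/- mice (adjusted p = 0.196) and -0.20 (95% interval -0.38 to -0.019) for Acadvl against Pparα hep-/- mice (adjusted p = 0.143), both short of the threshold. Against Pparα-/- mice the WT response was lower for 1 macrophage, 1 stellate cell and 1 hepatocyte marker. It was higher for 1 lymphocyte and neutrophil marker there, and for 1 against Pparα hep-/- mice. The part of these markers was not tested. The Eci1 difference from Pparα hep-/- mice was lost when any of 8 mice was left out (WT CTRL replicates 2 and 3, WT HFD replicates 3, 7 and 8, Pparα hep-/- CTRL replicates 2 and 4 and HFD replicate 5), with values from 0.40 to 0.52 and an adjusted p of up to 0.0993. The Decr1 difference was lost when any of 9 was left out (WT CTRL replicates 2 and 3, WT HFD replicates 3, 7 and 8, Pparα-/- CTRL replicates 6 and 7 and HFD replicates 7 and 8), with values from 0.38 to 0.51 and an adjusted p of up to 0.0956. Neither array weights nor the wash batch term could be dropped without losing all 3 calls.

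WT HFD replicates 1 and 2 bear on these differences. The mean standardized signal of the 10 genes, each gene centred on its mean over the 48 arrays and divided by its SD, was 0.23 and -0.44 in these mice and 1.41 to 1.89 in the other 6 of the group. It was -0.41 to 0.56 in WT CTRL mice, so replicate 1 fell within the CTRL range and replicate 2 just below it. Their summed hepatocyte signal, 1309270 and 1324146, was below the 1393745 to 1451583 of the other 6. Since these mice held the lowest WT HFD values of nearly all 10 genes, leaving them out raises the WT responses by construction. With both left out, the WT responses were 0.94 for Eci1, 0.82 for Hadh, 0.78 for Decr1, 0.73 for Acadm, 0.63 for Etfdh, 0.54 for Acadl, 0.45 for Hadhb, 0.37 for Acads, 0.30 for Acadvl and 0.29 for Hadha, all called (10.6% of all genes were higher). On HFD the same 8 genes were then called lower in both deletions (all genes 23.5% and 13.5%), with differences from WT of -1.44 for Etfdh, -1.03 for Acadvl and -0.93 for Eci1 in Pparα-/- mice and of -1.20, -0.88 and -0.74 in Pparα hep-/- mice. The responses that differed between WT and Pparα hep-/- mice then numbered 3 (Eci1 at 0.56, Hadh at 0.36 and Hadhb at 0.23, beside 7.5% of all genes), and those between WT and Pparα-/- mice 4 (Eci1 at 0.60, Decr1 at 0.54, Hadh at 0.37 and Etfdh at 0.33, beside 8.77%). With array weights dropped as well, these numbered 1 (Eci1 at 0.51) and 2 (Eci1 at 0.60 and Decr1 at 0.46), beside 1.82% and 4.3% of all genes. Leaving out replicate 2 alone also brought Hadh past the threshold in both comparisons, and leaving out replicate 1 alone did so against Pparα-/- mice.

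**Figure D4:**
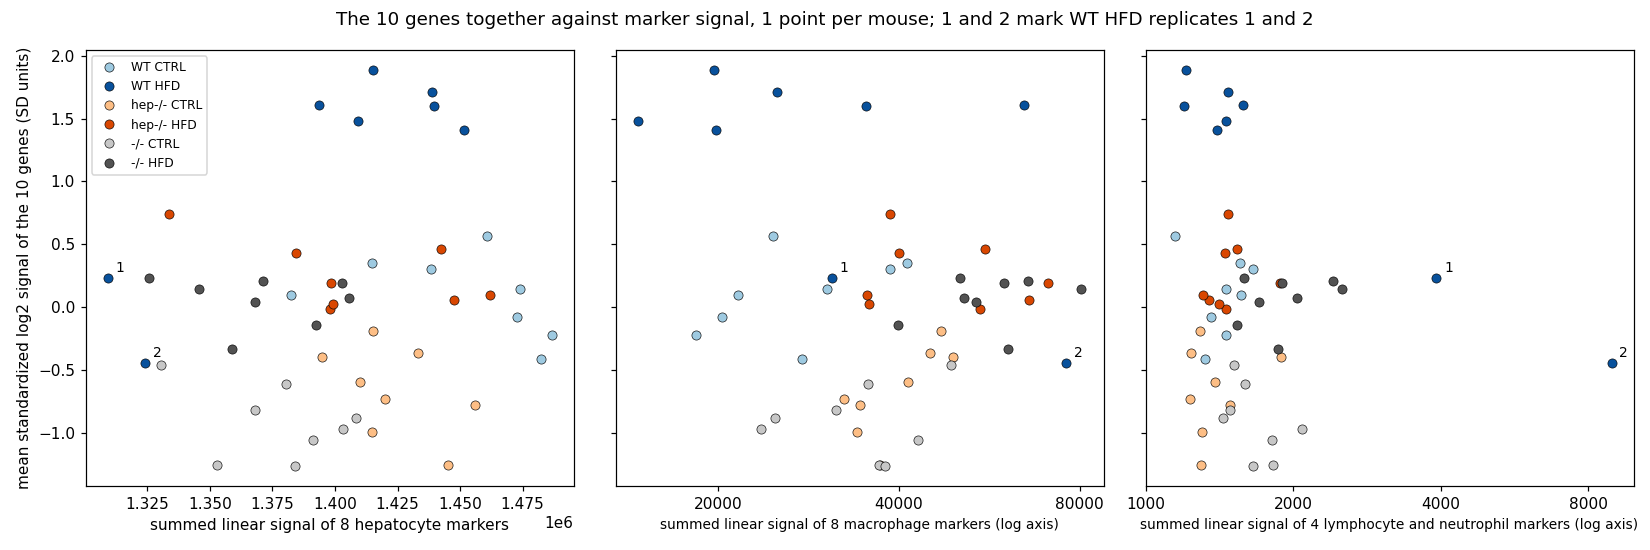
Mean standardized log2 signal of the 10 genes (y axis, in SD units over the 48 arrays) against the summed linear signal of hepatocyte, macrophage, and lymphocyte and neutrophil markers (x axes, the last 2 on a log scale), 1 point per mouse. WT HFD replicates 1 and 2, marked by their numbers, sit at 0.23 and -0.44 with the 2 highest lymphocyte and neutrophil sums, 3922 and 8932, while the other 6 WT HFD mice sit at 1.41 to 1.89.

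Mice of 1 group also varied together across the 10 genes. After group means and wash batch were removed, the correlation over the 48 arrays between any pair of the 10 was 0.207 to 0.853, with a median of 0.622, and all 45 were above 0. Hadha and Hadhb correlated at 0.588. Without that removal the 45 values ran from -0.051 to 0.928 with a median of 0.694. These values describe genes read from the same arrays and normalized together, with the marker differences above between the arrays. WT HFD replicates 1 and 2 carry part of these values. Over the other 46 arrays the residual correlations ran from -0.040 to 0.703 with a median of 0.394, and 44 of 45 were above 0.

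Among the 5 genes outside the list whose log2 signal was most like the mean of the 10, by Pearson's r over the 48 arrays and 21907 genes, were Hsd17b4 at 0.932, Dhrs4 at 0.928, Rab30 at 0.914 and Rufy4 at 0.908. Hsd17b4 encodes the peroxisomal multifunctional enzyme. On residuals from group means and wash batch the 5 nearest included Acaa1b at 0.922, 4930525G20Rik at 0.910, Pex11a at 0.907 and Aldh3a2 at 0.891. Without WT HFD replicates 1 and 2 these residual values were 0.830, 0.792, 0.796 and 0.765 in the same order, and the log2 signal values named here stayed between 0.907 and 0.953. Acaa1b encodes a peroxisomal thiolase and Pex11a a peroxisomal membrane protein.

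Hadhb and Etfdh have further probes, which do not all follow the brightest. On mm9, the build of the files, the Hadhb probe used above lies at chr5:30510925-30510984. A dimmer probe of the same transcript at chr5:30503442-30503500 moved likewise, by 0.44 on HFD in WT mice and by -0.54 in Pparα-/- mice on CTRL. The third, designed on an Ensembl transcript at chr5:30494754-30494813, fell on HFD in WT mice by 0.34 (adjusted p = 0.0233), the opposite direction. It did not pass in Pparα hep-/- (0.10) or Pparα-/- mice (-0.033), and on CTRL it was lower than in WT mice by 1.06 in Pparα-/- and 0.99 in Pparα hep-/- mice. Its diet response in WT less that in Pparα hep-/- mice was -0.44 (95% interval -0.73 to -0.15, adjusted p = 0.0393). For Etfdh the second probe, also on an Ensembl transcript, at chr3:79423588-79423647, showed no diet call, with 0.16 (95% interval -0.12 to 0.44) in WT mice. Its deletion differences on HFD were -1.89 in Pparα-/- and -0.96 in Pparα hep-/- mice, and Pparα-/- less Pparα hep-/- mice came to -0.93 (95% interval -1.16 to -0.70, adjusted p = 8.05e-09). This probe is dim: its intensity was 78 to 165 in Pparα-/- mice, with a background of 20 to 36 not subtracted, which compresses such differences. With the mean over both probes the Etfdh response to HFD in Pparα-/- mice was 0.10 (adjusted p = 0.4), short of the threshold. The other 8 genes have a single probe.

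The lists of related genes were described by their counts and medians. Over all genes, 9.32%, 10.7% and 13.8% were higher on HFD in WT, Pparα hep-/- and Pparα-/- mice. Against WT, 23.7% and 18.4% of all genes were lower in Pparα-/- mice on HFD and CTRL, and 14% and 12.9% in Pparα hep-/- mice. On CTRL 16.9% and 12.3% were higher in Pparα-/- and Pparα hep-/- mice. Some list counts lie near these shares. Of 6 carnitine shuttle genes, which bring acyl groups across the inner membrane, 6 were higher on HFD in WT mice, 3 in Pparα hep-/- and 4 in Pparα-/- mice. On HFD 5 of them were lower than WT in each deletion, and on CTRL 4 in Pparα-/- and 3 in Pparα hep-/- mice, with medians on HFD of -1.11 and -0.73. The highest diet response was that of Crat, the carnitine acetyltransferase, at 1.22 in WT mice, and the lowest deletion value was that of Slc25a20, the carnitine-acylcarnitine carrier, at -1.89 in Pparα-/- mice on HFD.

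A list of 13 other mitochondrial fatty acid genes held mostly beta-oxidation genes, and some that serve fatty acid synthesis. Of these 13 the HFD raised 10 in WT mice, 5 in Pparα hep-/- mice, and 7 in Pparα-/- mice, where 1 was lower. Ech1, a dienoyl-CoA isomerase, had the highest WT response at 0.92. On HFD 6 were lower and 3 higher in Pparα-/- than in WT mice, and 6 lower and 0 higher in Pparα hep-/- mice. On CTRL 5 were lower and 5 higher in Pparα-/- mice, and 4 lower and 4 higher in Pparα hep-/- mice. Ech1 was again at the low end with -1.64, and Acad10, a dehydrogenase family member, at the high end with 1.43. The medians of this list against WT, -0.066 in Pparα-/- and -0.099 in Pparα hep-/- mice on HFD, were closer to 0 than those of the 10 genes. Of 6 other enzymes that hand electrons to ETF, 2 were higher on HFD in WT mice, with Gcdh the highest at 0.44, and 2 were lower and 1 higher on HFD, but 1 lower and 2 higher on CTRL, in Pparα-/- against WT mice. For Pparα hep-/- mice the counts were 2 lower and 0 higher on HFD, and 0 lower and 2 higher on CTRL.

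Of 16 peroxisomal beta-oxidation genes the HFD raised 11 in WT mice, 8 in Pparα hep-/- mice, where 1 was lower, and 5 in Pparα-/- mice. The highest was Acaa1b at 1.38 in WT mice. On HFD 8 were lower in Pparα-/- mice, down to -2.46 for the transporter Abcd2, and Acox2, a branched-chain oxidase, was higher by 0.85, while on CTRL 7 were lower and 2 higher. For Pparα hep-/- mice the peroxisomal counts were 6 lower and 1 higher on HFD, and 5 lower and 3 higher on CTRL. Of 8 propionyl-CoA and ketone body genes 7 were higher on HFD in WT mice, with Acat1, the mitochondrial acetoacetyl-CoA thiolase, the highest at 0.82. On HFD 2 of these were lower and 3 higher in Pparα-/- mice, with Mut, the methylmalonyl-CoA mutase, the highest at 0.56, and on CTRL 1 was lower and 6 were higher. On each diet 1 was lower and 2 were higher in Pparα hep-/- mice. Of 29 oxidative phosphorylation subunits 7 were higher on HFD in WT mice, up to 0.28 for Ndufa10, and on HFD 11 were lower and 2 higher in Pparα-/- mice, within -0.35 for Cyc1 and 0.20 for Sdhb, and on CTRL 2 were lower and 5 higher. Against WT, Pparα hep-/- mice had 2 lower and 2 higher on HFD, and 1 lower and 7 higher on CTRL. Their median WT diet response was 0.12, beside 0.51 for the 10 genes.

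**Figure D5:**
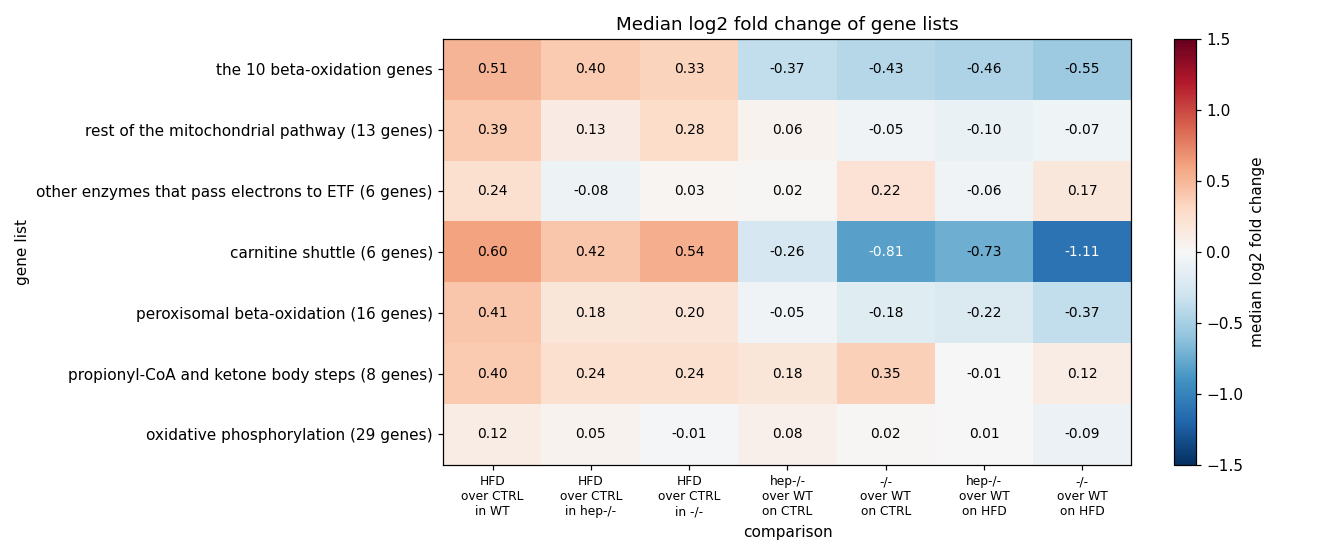
Median log2 fold change (colour and number) of the 10 genes and of the 6 lists of related genes (y axis) in the 3 diet comparisons and the genotype comparisons (x axis). In WT mice on HFD the medians are 0.51 for the 10 genes, 0.60 for the carnitine shuttle and 0.12 for oxidative phosphorylation, and in Pparα-/- mice on HFD the carnitine shuttle is lowest at -1.11.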

How the data were processed

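Liver RNA (200 ng) of each mouse was labelled in 1 colour and hybridised to Agilent arrays of 60-base probes, with 1 array per mouse. The authors deposited the scanner output of Agilent Feature Extraction 10.10.1.1, whose spot intensities are median pixel values without background subtraction or normalization, and a table of log2 values that they had filtered, corrected for the wash bath and quantile normalized.

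Here, intensities of non-control spots were taken to log2, outlier spots were dropped and spots of a probe averaged. A probe stayed in if some group had it well above background on 4 or more of its 8 arrays, and probes were quantile normalized over 48 arrays. limma 3.58.1 (R 4.3.3) took group means, the wash batch and array weights, Benjamini-Hochberg adjustment ran over all tested probes of a contrast, and calls needed an adjusted p no higher than 0.05. Probes with any of the 195 missing values were fitted without those arrays. Each gene is represented by the brightest of its tested probes. Intervals are at 95% and not adjusted. Arrays give no read depth; precision is set by the 8 mice of a group.

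The members, the lists of related genes and of cell type markers, and the rules were chosen with earlier results of these data known. The genes named are the 10 members, Ppara, the called gene with the largest change in each direction of a list, and the 5 genes most like the mean of the members on each of 2 scales, of which some are not reported here. Marker lists given here are those of hepatocytes, macrophages, stellate cells, endothelial cells, and lymphocytes and neutrophils. Lists for cholangiocytes, white adipocytes, red blood cells and pancreas were counted too, and each held a called marker in some comparison. The methods were tested on simulated data with independent noise for each probe, no wash batch shift and changes planted only in the WT HFD group. Such data cannot show how the methods handle the batch or genes that vary together. Same-numbered mice of different groups did not vary together (median r 0.022 over 120 pairs, against -0.002 over 840 pairs of different numbers), so numbers were not taken as pairs. Alternatives changed the weights, the batch term, the scaling, the background correction, the filter, the threshold, the probe rule and the source of the values, added the replicate number as a block, or left out single mice. Leaving out 5 arrays of low weight, and WT HFD replicates 1 and 2 with and without weights, were chosen after seeing the data. Promoter sequences are those of RefSeq on GRCm38.p6. Python 3.11.15 and matplotlib 3.10.9 drew the figures.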

Additional observations from a re-analysis of the deposited data

Results flagged for a closer look

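Among the 60 sets of 8 mice (10 genes in 6 groups), 4 held a mouse far from the other 7, and chance gives about 1 in 20 such sets. Acads in Pparα hep-/- CTRL replicate 7 was 12.20, where the nearest mouse was at 12.73 and the farthest at 13.01. Hadha in WT HFD replicate 2 was 10.35, below the other 7 at 10.82 to 11.25. Eci1 in Pparα hep-/- HFD replicate 8 was 15.21, above the other 7 at 14.41 to 14.75. Etfdh in Pparα-/- HFD replicate 5 was 12.75, above the other 7 at 12.46 to 12.58. Leaving out these mice 1 at a time changed none of the calls of the gene in question.

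Diet responses differed between genotypes for 2 genes. Eci1 rose more in WT mice by 0.46 than in Pparα hep-/- mice (limma, adjusted p = 0.032) and by 0.49 than in Pparα-/- mice (adjusted p = 0.018). Decr1 rose more in WT than in Pparα-/- mice by 0.45 (adjusted p = 0.035). These are 1 and 2 of 10 genes, beside 6.3% and 7.77% of all genes, and all 3 calls were lost without array weights, without the wash batch term or without the filter.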

How the results depend on the processing

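The 10 genes gave 120 log2 differences, and over 10 alternatives together 1149 of 1200 kept their side of the threshold, 38 fell short of it and 13 came past it. The sign changed in 36, of which 0 were called on either side, with reported values of at most 0.18 in size. The counts of called genes stayed within 1.5 times in all 3 diet comparisons, in the 4 comparisons with WT and in the comparison of diet responses between the deletions, under each alternative that was run, although single calls among them were lost or gained. The other 4 counts moved. Pparα-/- against Pparα hep-/- on CTRL gave 2 in place of 1 without the wash batch term, with the mean over probes and without 5 arrays of weight under 0.5, 3 with processed signals scaled to the 75th percentile, 0 at an adjusted p of 0.01, and 0 to 2 with single mice left out. The same on HFD gave, in place of 3, 0 without array weights, with and without WT HFD replicates 1 and 2, 1 without the filter and 1 at 0.01, and 1 to 3 with single mice left out. The diet response of WT against Pparα hep-/- mice gave, in place of 1, 0 without weights, without the wash batch term, with slide as a block, without the filter and at 0.01, 4 at the 75th percentile, 2 without the 5 arrays, 3 without WT HFD replicates 1 and 2, and 0 to 2 with single mice left out. WT against Pparα-/- mice gave, in place of 2, 0 without weights, without the wash batch term, without the filter and at 0.01, 4 at the 75th percentile, 4 without WT HFD replicates 1 and 2, and 1 to 3 with single mice left out. With the replicate number as a block these diet response counts were 0 and 1, and since the numbers do not pair the mice this says nothing on the size of the effect. The cause was not tested.

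Over all probes, calls for HFD in Pparα hep-/- mice numbered 6733, and 1270 without weights, 4236 without the wash batch term and 3578 without the filter. For HFD in Pparα-/- mice 8273 became 4034 without weights, for Pparα hep-/- against WT on HFD 8893 became 3245 and, without the filter, 5633, and for Pparα-/- against Pparα hep-/- on HFD 10190 became 6047 without weights. Calls for the diet response of WT against Pparα hep-/- mice numbered 3472, and 298 without weights, 2191 without the wash batch term, 2122 with slide as a block, 2275 with the replicate number as a block and 1226 without the filter. For WT against Pparα-/- mice 4781 became 1740, 3099 and 2528 without weights, wash batch term and filter, and between the deletions 1139 became 110 and 399 without weights and filter. At the 75th percentile the share of calls that were higher went from 46.8% to 34.6% for HFD in Pparα hep-/- mice, from 49.7% to 37.8% for Pparα hep-/- against WT on HFD, and from 55.6% to 68.6% and from 51.7% to 65.5% for the diet responses of WT against Pparα hep-/- and Pparα-/- mice. Signals of all 13 probes were well above background, but background was not subtracted, which compresses differences of the dimmer probes most.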
